A study of Eucalyptus globulus and Eucalyptus grandis with 36 samples.

Results

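Eucgr.B01008 and Eucgr.B01896 are 2 of the 11827 genes that stand in any of the 8 deposited tables, and both carry the description Chlorophyll A-B binding family protein. They were chosen by gene identifier for being high in the cold, so the values at 10 °C that chose them are given as a description. The data are stem RNA sequencing of Eucalyptus globulus and Eucalyptus grandis, eucalypts planted for pulp, with 36 samples in 12 groups of 3. The plants were potted seedlings of 6 months from clonal seed, moved into chambers at a height near 25 cm. Treatment lasted 35 days, with 10 h per day under blue and red diodes at 280 µmol per square metre per second in all groups. The groups of each species were 10 °C in elevated CO2, 10 °C, 20 °C in elevated CO2, 30 °C in elevated CO2, 30 °C, and the control at 20 °C. These are the temperatures of the sample titles; the chambers ran at 10 to 12 °C, at 22 to 24 °C and at 33 to 35 °C. Elevated CO2 meant 700 ppm, and all other groups had ambient air, for which the labels give both 390 and 400 ppm. Each condition was set in a growth chamber, so chamber and treatment cannot be told apart.

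Chlorophyll a/b-binding proteins sit in the thylakoid membranes of chloroplasts. Most of them are antenna proteins that gather light and pass its energy to photosystems I and II, the complexes that drive photosynthetic electron transport. The same superfamily also holds stress relatives, among them the early light-induced proteins, the one-helix proteins and the stress-enhanced proteins. In Arabidopsis the early light-induced proteins accumulate when leaves receive more light than they can use, as happens in bright cold conditions, and are thought to limit damage by light. Young stems are green and contain such chloroplasts in their outer tissues. The family description in the files does not say which branch either gene belongs to. By description, 0 of the 11827 genes are early light-induced proteins. Such genes may carry another description, so this does not show that none is listed.

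In all, 5 genes of the tables share this family description. The deposited annotation places all of them on 1 sequence, labelled pchr3. The end of Eucgr.B01008 lies 13.8 kb from that of Eucgr.B01007 and 42.2 kb from that of Eucgr.B01004. The end of Eucgr.B01896 lies 8.73 kb from that of Eucgr.B01895, and 21.4 Mb from that of Eucgr.B01008. No other listed gene ends between the members of either close pair. The sources used here name no genome build. Genes of 1 family may share reads, so the values of single genes are uncertain.

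Both genes had a value in 10 of the 11 groups for which the tables give any, and each value is the authors' single log2 normalised value for a whole group. No value per sample, SD, depth or p-value per gene was available, so the spread between replicates cannot be set beside any difference. The tables list only genes that the authors selected at a corrected p of 0.05 and at least a 2-fold difference. Both genes stand in 6 of the 8 tables. They are not in the table of E. grandis at 30 °C in elevated CO2 or in that of E. globulus in elevated CO2 against the E. grandis control.

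In E. globulus, the log2 group value of Eucgr.B01008 was 12.92 at 10 °C in elevated CO2 and 11.47 at 10 °C. It was 8.33 at 20 °C in elevated CO2, 9.51 at 30 °C in elevated CO2 and 6.50 at 30 °C, against 6.80 in the control. In E. grandis the same gene was at 13.85 at 10 °C in elevated CO2, 12.45 at 10 °C and 6.07 at 30 °C, against 7.69 in the control. All 4 groups at 10 °C were above all 6 warmer groups. In whole stems, more cells of a type and more RNA per cell cannot be told apart, and neither can fewer cells and less RNA. The highest was E. grandis at 10 °C in elevated CO2 and the lowest E. grandis at 30 °C, which are 220-fold apart.

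Eucgr.B01896 had a log2 group value of 11.79 in E. globulus at 10 °C in elevated CO2 and 10.69 at 10 °C. It was 7.87 at 20 °C in elevated CO2, 9.62 at 30 °C in elevated CO2 and 6.32 at 30 °C, against 6.25 in the control. In E. grandis it was 13.05 at 10 °C in elevated CO2, 11.57 at 10 °C and 4.96 at 30 °C, against 6.43 in the control. The highest and the lowest group were those of Eucgr.B01008, here 273-fold apart. From high to low, both genes ran through the groups in the same order, apart from the E. globulus groups at 30 °C and 20 °C in ambient CO2, which changed places. Whether neighbours in this order differ beyond their spread cannot be said.

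**Figure D1:**
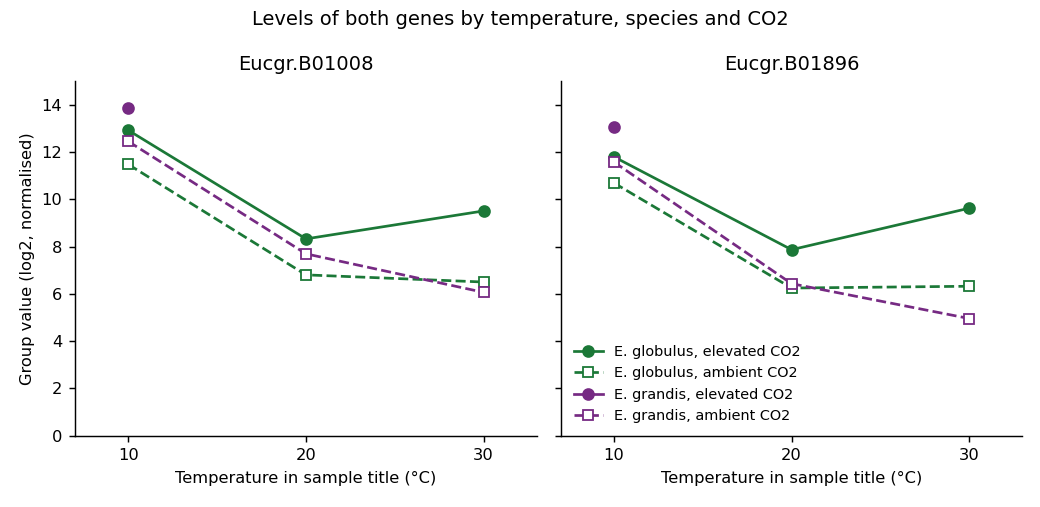
Log2 normalised group value (vertical axis) of Eucgr.B01008 and Eucgr.B01896 against the temperature in the sample titles in °C; filled circles and solid lines are elevated CO2, open squares and dashed lines are ambient CO2, and each point is the authors' value for 1 group, without error. At 10 °C the 4 groups of Eucgr.B01008 lie between 11.47 and 13.85 and those of Eucgr.B01896 between 10.69 and 13.05, above all warmer groups.

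The first question was how far low temperature raised these genes. At 10 °C in ambient CO2, the E. globulus value of Eucgr.B01896 was 21.7-fold that of the control, a log2 difference of 4.44, and for Eucgr.B01008 the log2 difference was 4.67. Both count among the genes at least 2-fold higher in that comparison, 17.1% of the 11827. They took places 50 (Eucgr.B01008) and 59 (Eucgr.B01896) among its 7453 listed genes, counted from the highest difference. In E. grandis the same comparison gave 35.3-fold for Eucgr.B01896, a log2 difference of 5.14, and 26.9-fold for Eucgr.B01008, one of 4.75. There 1.20% of the 11827 genes were at least 2-fold higher, and the genes took places 3 (Eucgr.B01896) and 6 (Eucgr.B01008) of 547. These contrasts chose the genes, so the places describe them and test nothing.

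With elevated CO2 at 10 °C, set against the control in ambient CO2, the differences were greater in both species. In E. globulus the log2 difference was 6.11 for Eucgr.B01008 and 5.55 for Eucgr.B01896, and 15.8% of genes were at least 2-fold higher. In E. grandis it was 6.62 for Eucgr.B01896 (98.2-fold) and 6.15 for Eucgr.B01008 (71.2-fold), and 3.91% of genes were at least 2-fold higher. Those were the highest and the second-highest difference of all 1551 genes in that E. grandis table. High values in the cold chose the genes, so these places are a description only. The comparisons with and without elevated CO2 share their control samples, so they are not independent of each other.

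Both genes were also higher in the cold where CO2 was elevated in both groups. In E. globulus in elevated CO2, 10 °C against 20 °C gave a log2 difference of 4.59 for Eucgr.B01008 and 3.93 for Eucgr.B01896, where 31.6% of the genes with both values were at least 2-fold higher. Set against the difference in ambient CO2, that was a change of -0.08 for Eucgr.B01008 and -0.52 for Eucgr.B01896. These groups come from separate tables, so no test by the authors covers the elevated pair.

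At 30 °C both genes were below the control in E. grandis and close to it in E. globulus, and the difference between species was not tested. In E. grandis, Eucgr.B01008 was 3.09-fold lower than in the control and Eucgr.B01896 was 2.78-fold lower, while 0.490% of the 11827 genes were at least 2-fold lower there and 0.169% at least 4-fold lower. In E. globulus in ambient CO2, the log2 differences were -0.30 for Eucgr.B01008 and 0.08 for Eucgr.B01896, both under 2-fold. The E. grandis differences minus those of E. globulus came to -1.33 on the log2 scale for Eucgr.B01008 and -1.55 for Eucgr.B01896. Set directly against 30 °C, stems at 10 °C held 97.9-fold more of Eucgr.B01896 and 83.3-fold more of Eucgr.B01008 in E. grandis. Those were the 2 highest differences of the 547 genes listed, of which 172 (1.45% of the 11827) were at least 2-fold higher at 10 °C. In E. globulus the log2 difference of 10 °C from 30 °C was 4.97 for Eucgr.B01008 and 4.37 for Eucgr.B01896, in a comparison where 18.4% of genes were at least 2-fold higher. Since values at 10 °C chose the genes, their differences of 10 °C from 30 °C and the places describe them and test nothing.

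Elevated CO2 was the second factor of the design, and both genes were higher in elevated than in ambient CO2 at every temperature where both groups had a value. At 20 °C in E. globulus, Eucgr.B01896 was 3.08-fold and Eucgr.B01008 2.87-fold above the control. The authors' table of that comparison lists them among the 3.31% of the 11827 genes that were at least 2-fold higher. Neither was 4-fold higher, against 0.837% of the 11827 genes. Over the 1717 genes with both values in any table, 27.3% were at least 2-fold higher. At 10 °C in E. globulus the log2 difference of elevated from ambient CO2 was 1.44 for Eucgr.B01008 and 1.11 for Eucgr.B01896. Among the 2555 genes with both values there, 5.40% were at least 2-fold higher. At 10 °C in E. grandis it was 1.40 for Eucgr.B01008 and 1.48 for Eucgr.B01896, and 7.72% of 259 genes were at least 2-fold higher.

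The CO2 difference was greatest at 30 °C in E. globulus, at 9.85-fold for Eucgr.B01896 and 8.03-fold for Eucgr.B01008. There 16.7% of 3486 genes with both values were at least 2-fold higher, and the genes took places 19 (Eucgr.B01896) and 30 (Eucgr.B01008). The log2 difference at 30 °C exceeded that at 20 °C by 1.68 for Eucgr.B01896 and by 1.48 for Eucgr.B01008. Set against the control at 20 °C in ambient CO2, the stems at 30 °C in elevated CO2 had 10.4-fold more of Eucgr.B01896 and 6.51-fold more of Eucgr.B01008, in a table where 29.9% of the 11827 genes were at least 2-fold higher. Within elevated CO2, 30 °C exceeded 20 °C by a log2 difference of 1.75 for Eucgr.B01896 and 1.18 for Eucgr.B01008, and 47.1% of the genes with both values were at least 2-fold higher. In E. globulus in elevated CO2, the lowest of the 3 temperatures was thus 20 °C for both genes. In ambient CO2 their E. globulus values at 30 °C and 20 °C lay within 0.30 of each other. Only the comparison at 20 °C was tested by the authors, since the groups at 10 and 30 °C with and without added CO2 stand in separate tables.

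A total of 22 genes had values in all 8 groups of these 4 CO2 pairs, which share no group. Of these, 3 genes (13.6%) were at least 2-fold higher in elevated CO2 in all 4 pairs: Eucgr.B01008, Eucgr.B01896 and Eucgr.H03885, a 2-oxoglutarate and Fe(II)-dependent oxygenase, one of a large class of enzymes that oxidise metabolites and hormones. None of the 22 was at least 2-fold lower in all 4, and no test was run for this count. Eucgr.B01008 and Eucgr.B01896 have a value at 20 °C in elevated CO2 only because the authors list them as at least 2-fold apart there. Their 2-fold difference in that pair was thus set by the listing, and the count describes them only.

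**Figure D2:**
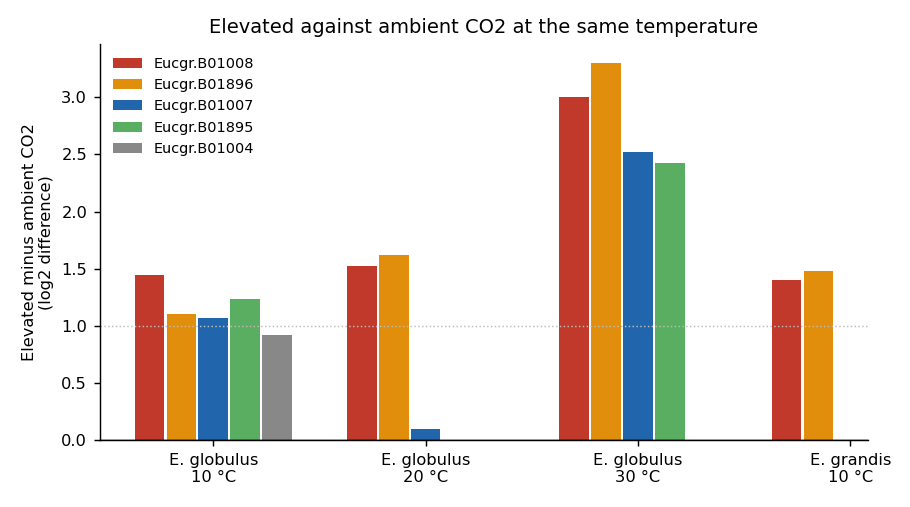
Log2 difference of elevated minus ambient CO2 (vertical axis) in the 4 pairs of groups at the same temperature, with 1 bar for each chlorophyll A-B binding family gene that had a value in both groups; the dotted line marks a 2-fold difference. Bars of Eucgr.B01008 and Eucgr.B01896 lie above that line in all 4 pairs and reach 3.01 (Eucgr.B01008) and 3.30 (Eucgr.B01896) in E. globulus at 30 °C, while Eucgr.B01007 stands at 0.10 in E. globulus at 20 °C.

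Between species, group values of separate tables were set side by side without a test. Both species share the same gene identifiers, and how the reads of each were aligned is not stated. At 10 °C, E. grandis was above E. globulus by 0.97 on the log2 scale for Eucgr.B01008 and by 0.88 for Eucgr.B01896. From the highest difference, these were places 81 (Eucgr.B01008) and 91 (Eucgr.B01896) of the 353 genes with both values. At 10 °C in elevated CO2, E. grandis was above by 0.93 for Eucgr.B01008 and by 1.26 for Eucgr.B01896, at places 58 (Eucgr.B01008) and 41 (Eucgr.B01896) of 461. In the controls the difference was 0.89 for Eucgr.B01008 and 0.19 for Eucgr.B01896, at places 1083 (Eucgr.B01008) and 1442 (Eucgr.B01896) of 2453. At 30 °C in ambient CO2 the order turned, with E. grandis below E. globulus by a log2 difference of -0.44 for Eucgr.B01008 and -1.36 for Eucgr.B01896. Counted from the lowest difference, these were places 87 (Eucgr.B01008) and 26 (Eucgr.B01896) of 353. E. globulus at 20 °C in elevated CO2 exceeded the E. grandis control by 1.44 for Eucgr.B01896 and by 0.63 for Eucgr.B01008, and neither gene is listed in that table.

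The members varied together. Their log2 differences had the same sign in 9 of 10 comparisons within deposited tables, and in the remaining one, E. globulus at 30 °C, both were under 2-fold. The rule chose both for 1 part of these comparisons, so this count describes them only. Where they parted most was E. globulus in elevated CO2, in which 10 °C exceeded 30 °C by 3.41 for Eucgr.B01008 and by 2.17 for Eucgr.B01896, and 18.1% of the genes with both values were at least 2-fold higher. Across all 10 groups, the gap between their log2 values moved over a range of 1.38, against ranges of 7.78 for Eucgr.B01008 and 8.09 for Eucgr.B01896.

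Of the other 3 genes of the same description, the close neighbours of the members were also higher in the cold but, unlike the members, were more than 2-fold above the E. globulus control at 30 °C. Eucgr.B01007, the close neighbour of Eucgr.B01008, had a log2 value of 9.28 at 10 °C in E. globulus, 7.32 at 30 °C and 5.87 in the control. Eucgr.B01895, the close neighbour of Eucgr.B01896, had 12.96 at 10 °C, 11.42 at 30 °C and 9.72 in the control. Both neighbours were thus lowest at 20 °C in ambient CO2, with log2 differences at 30 °C from the control of 1.44 for Eucgr.B01007 and 1.70 for Eucgr.B01895, whereas Eucgr.B01008 and Eucgr.B01896 stayed within 0.30 of it. Whether neighbour and member differ in their response was not tested.

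In the cold the neighbours were less far up than the members. The values at 10 °C chose the members, so this order describes them and tests nothing. Eucgr.B01007 was 10.6-fold and Eucgr.B01895 was 9.48-fold higher in E. globulus at 10 °C than in the control, and in elevated CO2 at 10 °C Eucgr.B01007 was 22.3-fold and Eucgr.B01895 22.4-fold higher. In elevated CO2 at 30 °C the order was the reverse, with log2 differences of 3.96 for Eucgr.B01007 and 4.13 for Eucgr.B01895, beside 2.70 for Eucgr.B01008 and 3.38 for Eucgr.B01896. Elevated CO2 at 20 °C left Eucgr.B01007 at 5.97, against 5.87 in the E. globulus control, and the table of that comparison does not list it.

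In E. grandis, Eucgr.B01008 and Eucgr.B01896 were the only genes of this description in the table of 3 temperatures. Eucgr.B01007 stood in the E. grandis tables with elevated CO2, at 12.89 for 10 °C and 12.03 for 30 °C, against 8.11 in the control. It was thus 15.2-fold above the control at 30 °C in elevated CO2, in the table that lists neither Eucgr.B01008 nor Eucgr.B01896. Eucgr.B01004 was low wherever it had a value, with 2.64 at 10 °C in elevated CO2, 1.72 at 10 °C and 0.31 at 30 °C in E. globulus, and it was listed at 0 in the E. globulus control.

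**Figure D3:**
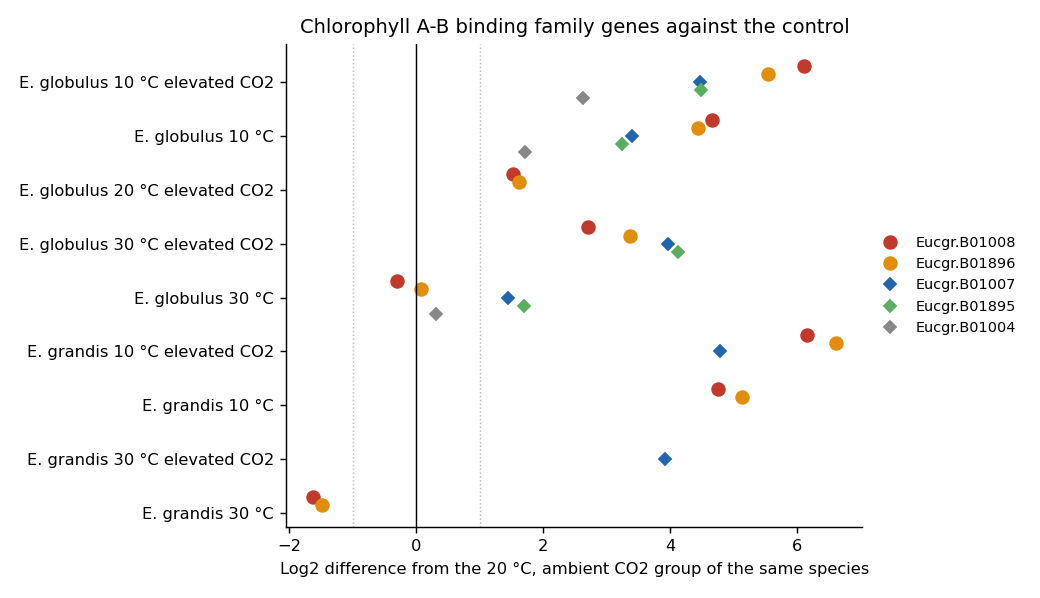
Log2 difference from the control of the same species (horizontal axis) of the 5 chlorophyll A-B binding family genes, with 1 row per group; circles are Eucgr.B01008 and Eucgr.B01896, diamonds the other 3 genes, and dotted lines mark 2-fold differences; rows show only genes in the authors' table of that comparison, and Eucgr.B01004 is set against a control listed at 0. Circles lie to the right of diamonds in all rows at 10 °C that hold both, and to the left of all diamonds at 30 °C in E. globulus. The values at 10 °C chose the genes shown as circles.

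Most other listed photosynthesis genes were lower in cold E. globulus stems. The members were chosen for being high in the cold, so their opposite direction follows from that choice. All 5 genes of the members' description were left out of the lists. The other photosynthesis genes are 82 genes in lists of antenna proteins (18), photosystems and electron transport (52) and carbon fixation (12). In E. globulus at 10 °C, 3 of them were at least 2-fold higher and 28 lower, out of 61 listed, with a median log2 difference of -0.93, against a median of 0.08 over all 7453 listed genes. In that comparison 17.1% of the 11827 genes were at least 2-fold higher and 14.4% at least 2-fold lower. None of the 3 higher genes is an antenna or photosystem subunit: Eucgr.E03416 and Eucgr.E02260 are described as alternative NAD(P)H dehydrogenase 2, enzymes known from the respiratory chain of mitochondria, and Eucgr.C02856 is a 2Fe-2S ferredoxin-like protein.

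Genes described as antenna proteins did not share the cold difference of the members, whose own branch of the family is not known. Of the 17 antenna genes listed, 0 were at least 2-fold higher and 8 at least 2-fold lower at 10 °C in E. globulus. The lowest was Eucgr.K02983, described as light harvesting complex photosystem II, with a log2 value of 10.51 at 10 °C, against 12.22 in the control. Among carbon fixation genes, CP12 (Eucgr.K03545), a small regulator of the Calvin cycle, was 3.56-fold lower at 10 °C. The largest fall among photosystem and electron transport genes was that of a PsbQ-like 3 gene (Eucgr.C02480), at 2.68 in cold stems, against 5.63 in the control.

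Antenna genes were also lower where the cold came with elevated CO2. The authors' lists for 2 groups hold only genes at least 2-fold apart, so every gene in them had changed. In E. globulus, 7 of the 82 photosynthesis genes were at least 2-fold higher and 25 lower, where 15.8% of the 11827 genes were higher and 12.7% lower. Of the 18 antenna genes, 6 were lower and 0 higher. In E. grandis, 14 of the 82 photosynthesis genes were lower and 0 higher, and 8 of the 14 were antenna genes. The median log2 difference of these 14 was -1.83, against -1.60 over all 1551 listed genes, of which 1088 were lower. There 9.20% of the 11827 genes were at least 2-fold lower. Eucgr.K02983 was again the lowest antenna gene, 4.83-fold below the E. grandis control. In the E. grandis table of 3 temperatures, only 1 of the 82 genes was listed, photosystem I subunit F (Eucgr.K00389), which was 2.17-fold lower at 10 °C than at 30 °C. For comparison, 2.53% of the 11827 genes were at least 2-fold lower there, and 2.00% were at least 2-fold lower at 10 °C than at 20 °C.

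At 30 °C in E. globulus in ambient CO2, 11 of the 17 listed antenna genes were at least 2-fold higher and 0 lower, while Eucgr.B01008 and Eucgr.B01896 were within 0.30 of the control. Over all 82 photosynthesis genes, 21 were higher and 7 lower there, a share of higher genes close to the 22.7% over the 11827 genes, of which 14.8% were lower. The antenna genes' median log2 difference was 1.29, and the highest antenna gene, light-harvesting chlorophyll B-binding protein 3 (Eucgr.F01077), had 11.81 at 30 °C, against 9.60 in the control. Set directly against 30 °C, stems at 10 °C had 8 photosynthesis genes at least 2-fold higher and 45 lower. There 18.4% of the 11827 genes were higher and 23.9% lower, and all 17 listed antenna genes were lower. In elevated CO2 at 30 °C, 13 of the 18 antenna genes were at least 2-fold higher in E. globulus and 0 lower. That was the direction of Eucgr.B01008 and Eucgr.B01896 there. Among the photosynthesis genes 34 were higher and 10 lower, where 29.9% of the 11827 genes were higher and 16.2% lower. In E. grandis at 30 °C in elevated CO2, 7 of the 18 antenna genes were higher and 0 lower. Among the photosynthesis genes 9 were higher there and 2 lower, where 4.89% of the 11827 genes were higher and 3.43% lower. Elevated CO2 at 20 °C in E. globulus gave 1 photosynthesis gene higher and 4 lower, none of them an antenna gene. In that comparison 3.31% of the 11827 genes were higher and 1.72% lower. E. globulus at 20 °C in elevated CO2 had 3 photosynthesis genes at least 2-fold lower than the E. grandis control, where 12.8% of the 11827 genes were lower. Of the 61 photosynthesis genes in the E. globulus table of 3 temperatures, 40 were below the control at 10 °C and above it at 30 °C, and 6 the opposite. These counts share the control samples.

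**Figure D4:**
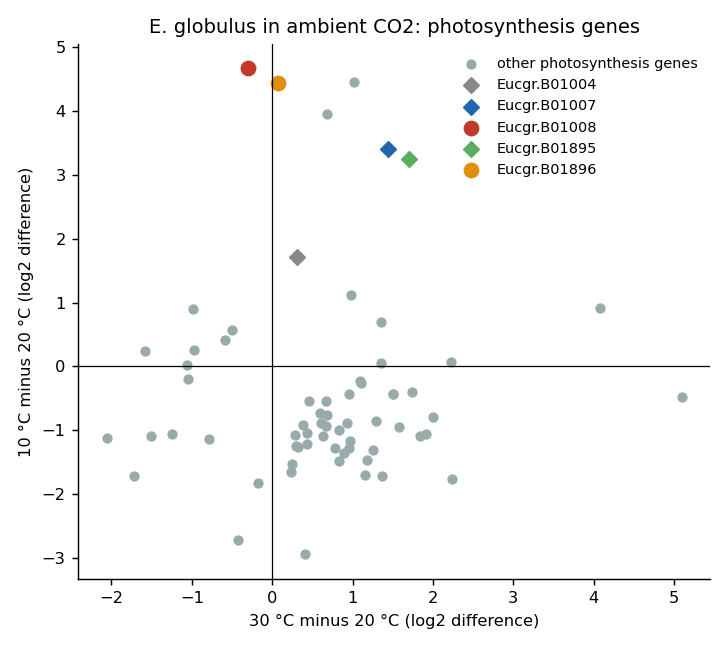
Log2 difference of 10 °C from 20 °C (vertical axis) against that of 30 °C from 20 °C (horizontal axis) in E. globulus in ambient CO2; grey points are the other 61 listed photosynthesis genes, large circles Eucgr.B01008 and Eucgr.B01896, and diamonds the other 3 chlorophyll A-B binding family genes. Most grey points lie at the lower right, below 0 at 10 °C and above 0 at 30 °C, and both circles lie at the top, at 4.67 (Eucgr.B01008) and 4.44 (Eucgr.B01896) on the vertical axis and near 0 on the horizontal one, where the 2 grey points nearest to their height are alternative NAD(P)H dehydrogenase 2 genes.

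None of the light stress relatives of the family listed for E. globulus at 10 °C in ambient CO2 was 2-fold higher there than in the control, against 25.4-fold for Eucgr.B01008. Of 5 one-helix protein genes, 2 were listed in the E. globulus table of 3 temperatures. Eucgr.K03089 was at 5.56 at 10 °C and 7.21 at 30 °C, against 5.57 in the control, and Eucgr.G01508 was at 4.82 at 10 °C and 6.13 at 30 °C, against 5.65 in the control. Stress enhanced protein 2 (Eucgr.I00326) was at 11.27 at 10 °C and 10.21 at 30 °C, against 10.73 in the control. It was thus highest in the cold, but 1.45-fold above the control, under the 2-fold threshold. Set against 30 °C, it was 2.08-fold higher at 10 °C, where 18.4% of the 11827 genes were at least 2-fold higher. In that comparison Eucgr.K03089 was 3.12-fold and Eucgr.G01508 2.48-fold lower. The photoprotection list of 22 genes, which also holds carotenoid enzymes, had 1 higher and 2 lower at 10 °C in E. globulus, where 17.1% of the 11827 genes were higher and 14.4% lower. Both the higher gene, nine-cis-epoxycarotenoid dioxygenase 9 (Eucgr.D00291), and the lowest, nine-cis-epoxycarotenoid dioxygenase 4 (Eucgr.E01144), are such carotenoid enzymes. In elevated CO2 at 10 °C the list had 2 higher and 5 lower, where 15.8% of all genes were higher and 12.7% lower. At 30 °C in ambient CO2 it had 4 higher and 2 lower, where 22.7% of all genes were higher and 14.8% lower. At 30 °C in elevated CO2 it had 11 higher and 2 lower, where 29.9% of all genes were higher and 16.2% lower. It was led there by Eucgr.K03089, 7.15-fold above the control.

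Chlorophyll metabolism and light signalling genes went in both directions in E. globulus at 10 °C in ambient CO2. Of 12 chlorophyll genes, 2 were at least 2-fold higher and 3 lower, beside 17.1% higher and 14.4% lower over the 11827 genes. At 10 °C in elevated CO2, 0 of the 12 were higher and 3 lower, where 15.8% of all genes were higher and 12.7% lower. A chlorophyllase 2 gene (Eucgr.B01020), of the enzymes that remove the phytol tail of chlorophyll, was at 2.56 at 10 °C, against 0.23 in the control. Protochlorophyllide oxidoreductase A (Eucgr.A01801), which carries out the light-dependent step of chlorophyll synthesis, was 2.25-fold lower at 10 °C in ambient CO2. In E. grandis at 10 °C in elevated CO2, 2 of the 12 chlorophyll genes were lower and 0 higher, where 9.20% of the 11827 genes were lower. Among them was a glutamyl-tRNA reductase (Eucgr.F02174), the first committed enzyme of the pathway, at 8.86, against 11.60 in the control. Of 32 light signalling genes, 7 were at least 2-fold higher and 9 lower in E. globulus at 10 °C, beside the same 17.1% higher and 14.4% lower over all genes. The highest was phytochrome interacting factor 3-like 1 (Eucgr.A00998), 7.70-fold up, and the lowest a phytochrome-associated protein 1 (Eucgr.C02984), 5.63-fold down.

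In elevated CO2, 10 light signalling genes were higher and 12 lower in E. globulus at 10 °C, where 15.8% of all genes were higher and 12.7% lower. At 30 °C in elevated CO2, 11 were higher and 8 lower, in a comparison where 29.9% of all genes were higher and 16.2% lower. The HY5-homolog (Eucgr.B02198), related to an Arabidopsis activator of light-induced genes, was at 9.94 at 10 °C in elevated CO2 and 10.63 at 30 °C in elevated CO2, against 8.76 in the E. globulus control. B-box 32 (Eucgr.F04023), a zinc finger protein of light responses in Arabidopsis, was 8.14-fold higher at 10 °C in elevated CO2 and 25.8-fold higher at 30 °C in elevated CO2.

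The pattern of each member over the 10 groups was most like that of the other, with a Pearson r of 0.99 and a root mean square distance of 0.41 between centred log2 values. Only 21 other genes had values in all 10 groups, 0 of them other photosynthesis genes, so the candidates were few. Next for both came a UDP-glycosyltransferase gene (Eucgr.E01068), with r = 0.91 to Eucgr.B01008 and 0.90 to Eucgr.B01896. It was followed by a major facilitator superfamily transporter gene (Eucgr.B00401), with 0.90 to Eucgr.B01008 and 0.87 to Eucgr.B01896, and by the oxygenase gene Eucgr.H03885, with 0.85 to Eucgr.B01008 and 0.78 to Eucgr.B01896. Germin 3 (Eucgr.F04417) and Eucgr.B02474, which has no description, complete the 5 nearest other genes for each, with r between 0.50 and 0.64. The range of Eucgr.E01068 over the groups was 2.91 on the log2 scale, so its swings were smaller. These r values describe 10 groups that share 2 controls.

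**Figure D5:**
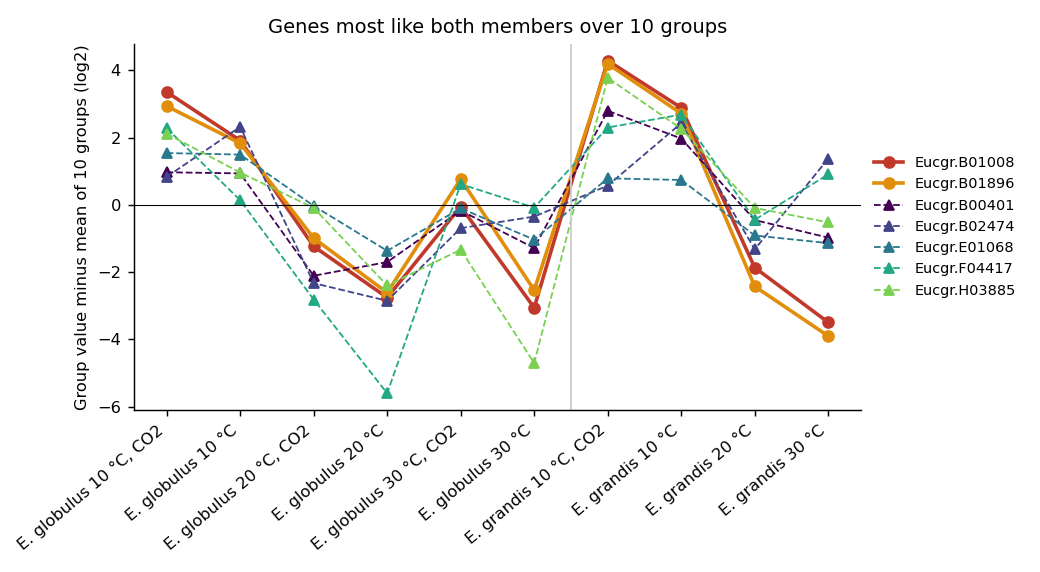
Log2 group value minus the mean of the 10 groups (vertical axis) for Eucgr.B01008 and Eucgr.B01896 (solid lines) and the 5 genes nearest to both by Pearson r (dashed lines); groups run along the horizontal axis, where CO2 marks elevated CO2. The 2 solid lines stay close together (r = 0.99), and Eucgr.E01068, next at 0.91 to Eucgr.B01008 and 0.90 to Eucgr.B01896, follows them with smaller swings.

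Marker lists were scored by gene descriptions to show what moved beside the members. Sums cover only the listed markers, since the others have no value, so they are not the level of a tissue. In E. globulus at 10 °C, 0 of 8 xylem markers were at least 2-fold higher and 2 lower, and the log2 of the summed level of the 6 listed was 12.97 at 10 °C, against 13.98 in the control. For phloem, 1 of 22 markers was higher and 1 lower, and the 10 listed summed to 8.90 at 10 °C, against 8.96 in the control. For epidermis and cork, 1 of 22 was higher and 3 lower, and the 15 listed summed to 12.28 at 10 °C, against 13.01 in the control. Of these listed markers, 1 epidermis and cork gene was at 0 in 1 group. In that comparison 17.1% of the 11827 genes were at least 2-fold higher and 14.4% lower. For comparisons of 2 groups the authors list only genes at least 2-fold apart, so every marker listed in them had changed. In E. globulus at 10 °C in elevated CO2, 15.8% of the 11827 genes were higher and 12.7% lower. There 3 of 3 listed xylem markers were lower, with a sum of 11.84, against 13.72 in the control. Of 7 listed epidermis and cork markers there, 1 was higher and 6 were lower, with a sum of 11.08, against 12.63 in the control, and the 1 listed phloem marker was higher.

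In E. grandis at 10 °C, the 1 xylem marker listed was higher, at 7.67, against 6.06 in the control, and so was the 1 phloem marker, at 11.87, against 10.59 in the control. No epidermis or cork marker was listed there. Over the 11827 genes, 1.20% were at least 2-fold higher in that comparison and 2.00% lower. In E. grandis at 10 °C in elevated CO2, where Eucgr.B01008 and Eucgr.B01896 were highest, 3 of 3 listed epidermis and cork markers were lower, with a sum of 10.01, against 13.18 in the control. There 2 of 2 listed phloem markers were higher, with a sum of 11.88, against 10.60 in the control, and 0 xylem markers were listed. Over the 11827 genes, 3.91% were higher and 9.20% lower in that comparison. The part of these markers in the difference of Eucgr.B01008 and Eucgr.B01896 was not tested.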

How the data were processed

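Stem RNA of 36 samples was placed in 12 groups by sample title. Nothing in the labels states that replicates were different plants, so p-values behind the authors' selection reflect a spread that may be technical. The submitters' processing notes name the tools Bowtie2 and DESeq only; genome build, aligner settings and counting are not stated. The deposited tables hold log2 normalised values, 1 per gene and group, with a floor of 0, together with log2 fold changes, absolute folds (a ratio of at least 1) and a signed fold (a score), per the file headers. Of the 8 tables, 6 list genes selected by a moderated test of 2 groups and 2 list genes selected by one-way ANOVA across 3 temperatures, at a corrected p of 0.05 and at least 2-fold, per the file headers. Depth per sample is unknown.

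All differences are those of group values, tested condition minus its control, computed with Python 3.11.15, pandas 2.3.3 and numpy 2.4.6. All 38299 deposited log2 fold changes matched the difference of group values, and all 6359 group values that stand in more than 1 table were equal (tolerance 0.0001). A gene is counted as changed where the authors list it and its groups differ by at least 2-fold; the 3-temperature tables give no test per pair. Shares of changed genes refer to the 11827 genes in any table, since how many genes entered the authors' tests is unknown. The members and gene lists were chosen with earlier results of these data known. Lists are patterns on gene descriptions, and the pattern search was tested on simulated data. Named genes are the members, their family, the highest and lowest changed gene per list and comparison, and the 5 nearest by Pearson r; the text gives a selection. One-helix, stress-enhanced and HY5-homolog genes, and the 3 higher photosynthesis genes, were named after their values had been seen. Alternatives were a 4-fold threshold, other scales, narrower lists and another measure of likeness. The E. grandis group at 20 °C with elevated CO2 was not analysed here.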

Additional observations from a re-analysis of the deposited data

How the results depend on the processing

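All 20 differences of Eucgr.B01008 and Eucgr.B01896 kept their direction and their side of 2-fold when computed from linear values less 1 with a pseudocount of 0.5, with a largest move of 0.02 on the log2 scale. Raising values under 1 to 1, or taking the control value from another table, could not move them, since neither gene has a value under 4.96 and values of the same group are equal in all tables. At a 4-fold threshold, 0 of both remained for E. globulus at 20 °C in elevated CO2 and 0 for E. grandis at 30 °C. No paired analysis was possible because the columns are group values, and for the same reason no replicate was left out.

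Counts of photosynthesis genes moved more. At 4-fold, E. globulus had 2 lower at 10 °C, 4 higher and 1 lower at 30 °C, 2 higher and 21 lower at 10 °C against 30 °C, and 0 of either kind at 20 °C in elevated CO2. It then had 2 higher and 4 lower at 10 °C in elevated CO2 and 9 higher and 3 lower at 30 °C in elevated CO2. E. grandis had 0 lower at 10 °C against 30 °C, 5 lower at 10 °C in elevated CO2, and 4 higher and 1 lower at 30 °C in elevated CO2, and E. globulus in elevated CO2 against the E. grandis control had 1 lower. With light-harvesting, photosystem and rubisco genes only, E. globulus had 0 higher and 16 lower at 10 °C, 1 lower at 30 °C, 1 higher at 10 °C against 30 °C, 0 of either kind at 20 °C in elevated CO2, 0 higher and 15 lower at 10 °C in elevated CO2 and 0 lower at 30 °C in elevated CO2. The count lower was then 0 for E. grandis at 30 °C in elevated CO2 and 0 for E. globulus in elevated CO2 against the E. grandis control. Without members of other protein families, a choice made after the descriptions had been seen, E. globulus had 0 higher at 10 °C, 4 lower at 30 °C, 3 higher at 10 °C against 30 °C, 0 higher and 2 lower at 20 °C in elevated CO2 and 4 higher at 10 °C in elevated CO2. Fewer genes in the list, or a higher threshold, lower these counts by construction. Leaving out genes with a group at 0 kept all 24 counts within 1.5 times.

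With root mean square distance in place of r, the 5 nearest genes of each member were the same 5. Over the E. globulus groups only, where 307 other genes have all values, 1 of the 5 remained for Eucgr.B01008 and 0 for Eucgr.B01896, and an aldehyde dehydrogenase 11A3 gene (Eucgr.C02594) was nearest after the other member for Eucgr.B01008 (r = 0.97) and nearest of all for Eucgr.B01896 (0.99).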

Other observations

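The alternative NAD(P)H dehydrogenase 2 genes were the only other listed genes of the photosynthesis lists with cold differences as large as those of the chlorophyll A-B binding family genes. At 10 °C their values were not higher in elevated than in ambient CO2. Eucgr.E03416 was at 10.93 in E. globulus at 10 °C in elevated CO2, 11.42 at 10 °C, 8.10 at 20 °C in elevated CO2 and 7.99 at 30 °C, against 6.97 in the control. Eucgr.E02260 was at 8.27 at 10 °C in elevated CO2, 8.69 at 10 °C and 5.41 at 30 °C, against 4.73 in the control. In the cold, the value in elevated CO2 was thus below that in ambient CO2 for both, unlike Eucgr.B01008 and Eucgr.B01896. At 20 °C in elevated CO2, however, Eucgr.E03416 was 2.19-fold above the control, the direction of Eucgr.B01008 and Eucgr.B01896 there. No test was run on how these genes differ from Eucgr.B01008 and Eucgr.B01896.

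A rubisco small-chain gene (Eucgr.B03013), which encodes part of the enzyme that fixes CO2, had its highest values at 30 °C in E. globulus. It was at 4.09 at 10 °C, 13.52 at 30 °C in elevated CO2 and 9.67 at 30 °C, against 4.58 in the control.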
